A study of Mus musculus with 6 samples.

Results

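The cytosolic protein-folding genes of induced mouse regulatory T cells were examined as a set of 36 genes, taken by symbol from the deposited count and TPM tables, which list 21899 genes each. They comprise the 8 subunits of the chaperonin CCT, 4 subunits of prefoldin, 5 HSP70-family genes, 5 J-protein genes, 4 genes for other HSP70 partners, both cytosolic HSP90 genes, 6 HSP90 cochaperone genes and 2 heat shock factor genes. All 36 had enough counts to be tested. Regulatory T cells induced in culture (iTregs) were compared between Dlst-Treg iKO mice (KO, 3 libraries) and control iWT mice (WT, 3 libraries), to ask what loss of Dlst does to their transcriptome. The Dlst product is the succinyl-transferring component of 2-oxoglutarate dehydrogenase, an enzyme complex of the TCA cycle. In both groups splenic CD4+ T cells were held for 2 days under Treg-polarising conditions with 4-hydroxytamoxifen, which switches on tamoxifen-inducible Cre recombinases. Sorting for CD4, the FoxP3-GFP reporter and tdTomato gave the cells used for bulk mRNA sequencing. The 4-hydroxytamoxifen exposure and the reporters were therefore shared by controls and KO, deletion was induced in culture, and the labels give neither the promoter of the Cre nor the age and sex of the mice. Whether each library had its own animal or culture is not stated, so p-values measure only the spread between these samples, which may be partly technical.

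Cytosolic chaperones bind unfolded or newly made proteins and release them through cycles of ATP hydrolysis. HSP70 proteins act early, are stimulated by J proteins and discharged by nucleotide exchange factors such as BAG proteins and the HSP110-type proteins; HSP90 acts later on near-native clients such as kinases and steroid receptors, with cochaperones that set the pace of its cycle. CCT is a ring-shaped chamber that folds actin and tubulin, which prefoldin delivers to it. Activated T cells grow and divide quickly, and the constitutive chaperones are among the abundant mRNAs of such cells, whereas the inducible ones are driven by heat shock factor 1 when unfolded protein accumulates.

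The libraries held 33590510 to 49772670 estimated counts. Dlst itself stood at 161, 149 and 149 CPM (counts relative to library size, scaled by TMM) in WT replicates 1 to 3 and at 125, 129 and 129 CPM in KO replicates 1 to 3. The groups did not overlap, but the log2 fold change of -0.26 (SE 0.0527) had an adjusted p of 0.0894 (edgeR, quasi-likelihood F test, adjusted by Benjamini-Hochberg over all 12768 tested genes), which misses the threshold of 0.05. The counts are given per gene, so they show neither which part of Dlst was deleted nor in what share of the cells. KO replicate 1 stood apart: 4 Y-linked genes summed to 253 CPM in it and to between 0.672 and 1.24 CPM in the other 5 libraries. KO replicate 1 therefore included cells of a male animal, which the other 5 libraries lacked. It also held the most mRNA of other blood cells, with 8 neutrophil markers summing to 302 CPM against 77.6 and 70.2 CPM in KO replicates 2 and 3 and 5.95 to 33.3 CPM in WT, and with 11 monocyte and macrophage markers summing to 376 CPM against 98.7 and 110 CPM in KO and 20.4 to 31.4 CPM in WT. Within that list the macrophage genes C1qa, C1qb, C1qc and Fcgr1 had too few counts to be tested. The CD8 T-cell markers Cd8a and Cd8b1 summed to 63.8, 77.2 and 42.8 CPM in WT and to 101, 86.3 and 89.3 CPM in KO, again highest in KO replicate 1, with every KO library above WT for both genes. The 7 CD4 T-cell and Treg markers were present in all libraries, with a sum of 3433 to 3957 CPM that is mostly Il2ra. Among them Trac (log2 fold change 0.49), Foxp3 (0.26) and Ikzf4 (0.32) had all KO libraries above WT in CPM and Cd4 (-0.19) all below. Their edgeR adjusted p ran from 0.111 to 0.305. Over all tested genes 11.9% had every KO library above WT and 10.9% every one below. In TPM, which also divides by gene length, Foxp3, Ikzf4 and Cd4 stayed separated but Trac did not. Trac stood at 948, 908 and 855 TPM in WT and at 892, 936 and 905 TPM in KO. The 5 B-cell markers were highest in WT replicate 1 (87.9 CPM). In bulk RNA, fewer cells of a type and less RNA per cell cannot be told apart. KO replicates 2 and 3 were closer to each other (biological coefficient of variation 2.97%) than any other pair within a group (7.12 to 14.8%).

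The cytosolic folding genes as a set differed little between KO and WT. None of the 36 passed the adjusted threshold in edgeR (0 of 36; 0.674% of all tested genes did, 0.454% higher and 0.219% lower in KO), with adjusted p from 0.194 to 0.987, and DESeq2 and limma also called 0. In simulated counts, changes were placed in genes drawn at random from all tested genes. Of these edgeR called 2 of 50 changed 1.2-fold, 33 of 50 changed 1.5-fold and 40 of 50 changed 2-fold. The absence of calls therefore does not exclude small changes, nor larger ones in single genes. The 95% intervals of Hspa1a and Hspa1b reached log2 fold changes of -2.3 and -2.0. At an unadjusted p under 0.05 there were 4 members, or 11.1%, against 15.1% of all tested genes: Bag3, Hsph1 and Hspa1a below WT (6.6% of all tested genes were) and Dnajb4 above it (8.47%). A log2 fold change below 0 was found for 26 of 36 (72.2%, against 50.9% of all tested genes), and the median was -0.05, against -0.0029 over all tested genes. The 95% interval lay within 1.2-fold in both directions for 23 of 36 members (63.9%, against 38.8% of all tested genes). Intervals narrow with higher counts, and 25 of 36 members had a mean TPM over 100. No share for genes of matching level was computed, so the 2 percentages are not like for like.

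KO replicate 1 was low for most of the folding genes. That library was the lowest of the 6 for 27 members (75%, against 26.6% of all tested genes) and the highest for 1 (against 27.9%), while WT replicate 1 was the highest for 14 (against 24.6%). The median member stood 0.14 log2 units below its own 6-library mean in KO replicate 1 (a deviation of -0.14), against 0.03, 0.02 and 0.04 in WT and 0.03 and 0.02 in KO replicates 2 and 3. Over the tested genes above 0 in all libraries that deviation was between -0.00059 and 0.0036 in each library. The TMM scaling is meant to hold it near 0. Without KO replicate 1 the median log2 fold change of the members was -0.0064 and 18 of 36 were below 0, and without replicate 1 of both groups it was 0.00094, again with 18 below 0. The levels of other cells' markers and of the Y-linked genes given above move with the same library. The part of other cells and of sex in the result was not tested.

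**Figure D1:**
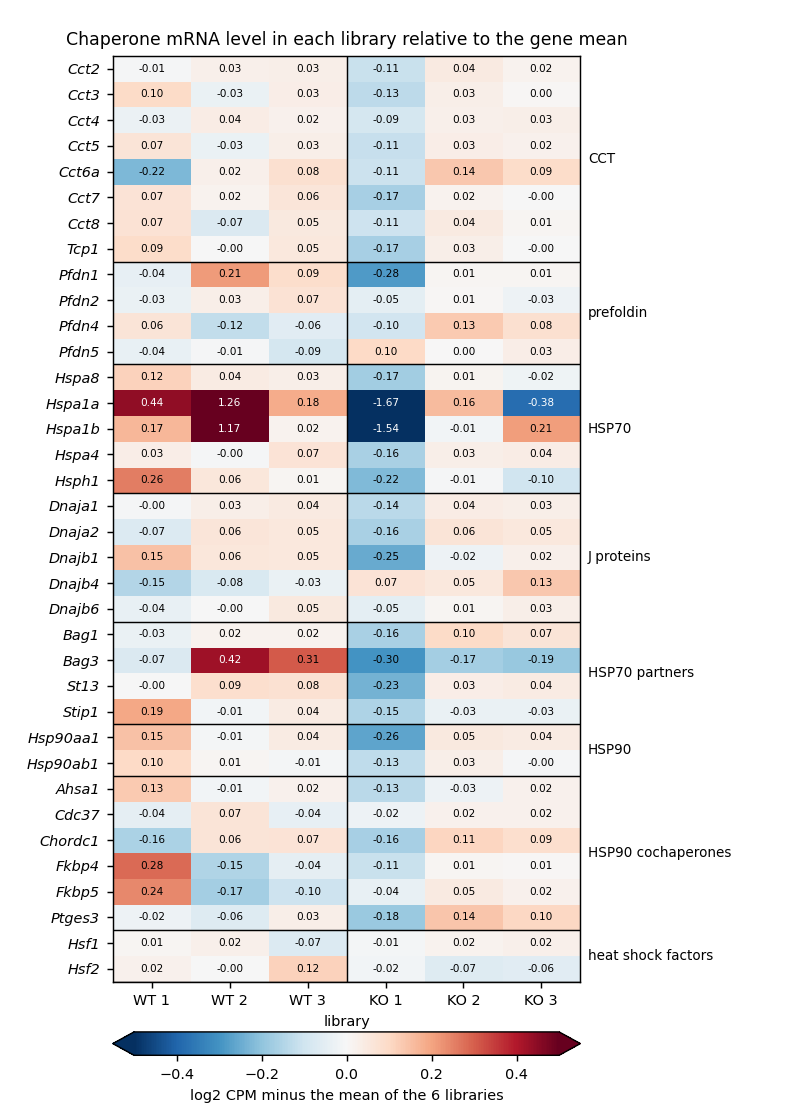
Level of each of the 36 genes (rows, grouped by role) in each library (columns), as log2 CPM minus the mean of the 6 libraries; red is above and blue below that mean, and the colour scale ends at 0.5 in both directions. KO replicate 1 is blue in most rows, and Hspa1a and Hspa1b span the widest range.

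The groups did not overlap for 10 members (27.8%, against 22.8% of all tested genes). In 8 of them every KO library was below every WT library (22.2%, against 10.9%): Cct7, Hspa8, Hspa1a, Hsph1, Dnajb1, Bag3, Stip1 and Hsf2. In 2, Pfdn5 and Dnajb4, every KO library was above (5.56%, against 11.9%). On the TPM scale (which also divides by gene length) the lists shifted: St13 and Chordc1 joined the KO-below genes, Cct7 and Hsf2 left them, and Dnajb4 overlapped. Of the 36 log2 fold changes, 17 kept their sign in all the alternative settings tried, 14 of them below 0, and 19 turned in at least 1.

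**Figure D2:**
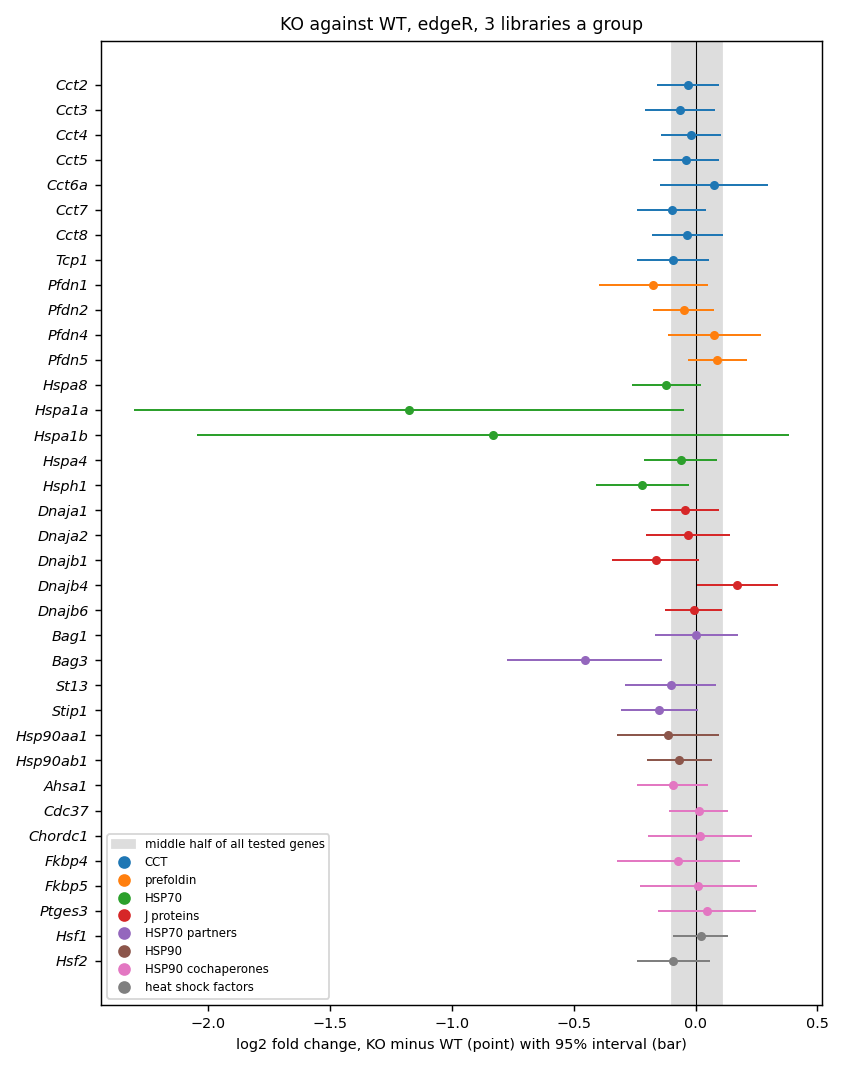
Log2 fold change, KO minus WT (point), with the model's 95% interval (bar) for the 36 genes, coloured by role; the grey band spans the middle 50% of all tested genes. Most points lie in or beside the band, Hspa1a and Hspa1b have the widest intervals, and Bag3, Hsph1, Hspa1a and Dnajb4 have intervals that leave out 0.

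The CCT chaperonin was abundant at the mRNA level in both groups. Its 8 subunit mRNAs, which code for 1 protein each of the double ring, summed to between 3046 TPM in KO replicate 1 and 3460 TPM in WT replicate 3. Per length, Cct2 was the most abundant subunit at a mean of 548 TPM over 6 libraries, followed by Cct8 at 478, Cct4 at 446, Tcp1 (subunit alpha) at 443, Cct5 at 439, Cct7 at 412, Cct3 at 292 and Cct6a at 263 TPM. From Cct2 to Cct7 each gene overlapped its neighbours in this order across libraries, although Cct2 was the highest within every library, and Cct3 and Cct6a overlapped too. The break in the order was between Cct7 and Cct3, whose lowest and highest values were 365 and 313 TPM. Within a library the highest subunit exceeded the lowest by 1.97 to 2.45 times.

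None of the 8 CCT genes passed. Their median log2 fold change was -0.04 and 7 were below 0; the sign of 6 (Cct2, Cct3, Cct4, Cct5, Cct6a and Cct8) turned in at least 1 alternative. KO replicate 1 was the lowest library for 7 of the 8, and for Cct6a it was WT replicate 1. Without KO replicate 1 the CCT median was 0.01. Cct2 stood at 601, 615 and 615 CPM in WT and at 559, 621 and 610 CPM in KO. Its groups overlapped, since KO replicate 2 was the highest of all (log2 fold change -0.03, SE 0.0549, edgeR adjusted p = 0.820). Cct7, the subunit with the smallest p, stood at 418.6, 403.5 and 416.2 CPM in WT and at 355.3, 403.3 and 398.7 CPM in KO. The KO libraries were all below the WT libraries, with only the gap between 403.5 and 403.3 CPM separating the groups, and the difference was not past the threshold (log2 fold change -0.10, SE 0.0611, edgeR adjusted p = 0.494). Cct7 (ENSMUSG00000030007) lies on chromosome 6 from 85451514 to 85468475, plus strand, in GENCODE M21 (GRCm38), and overlaps Pradc1 on the other strand.

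**Figure D3:**
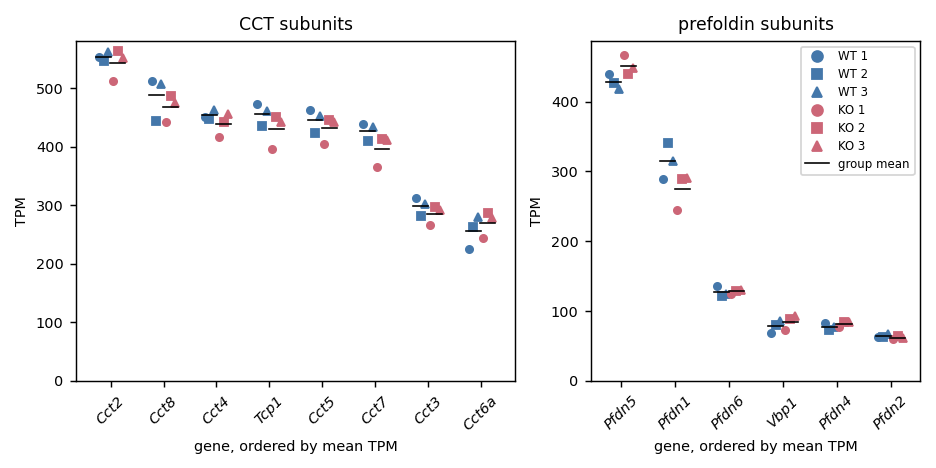
TPM of each CCT subunit gene (left) and prefoldin subunit gene (right) in each library, with group means as bars; genes are ordered by their mean. Cct3 and Cct6a lie below the other CCT subunits, and Pfdn5 and Pfdn1 are well above the other prefoldin genes. KO replicate 1 (red circles) is lowest for most CCT subunits.

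Prefoldin, the hexamer that passes nascent actin and tubulin to CCT, was uneven at the mRNA level. Pfdn5 ranged from 418 to 467 TPM over the 6 libraries, Pfdn1 between 244 and 341 TPM, Pfdn4 between 72.6 and 84.0 TPM and Pfdn2 between 59.5 and 67.1 TPM. The remaining 2 subunits, Pfdn6 and Vbp1, averaged 128 and 81.3 TPM. The highest subunit exceeded the lowest by 6.23 to 7.85 times in each library, with Pfdn5 always the highest and Pfdn2 always the lowest.

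Between the groups the 4 prefoldin genes had a median log2 fold change of 0.02, with 2 below and 2 above 0, and none passed. Pfdn1, the one with the smallest p, stood at 106, 126 and 116 CPM in WT and at 89.3, 109 and 109 CPM in KO. WT replicate 1 lay under 2 of the KO libraries, so the groups overlapped (log2 fold change -0.17, SE 0.0967, edgeR adjusted p = 0.442). Pfdn5 stood at 119, 122 and 115 CPM in WT and at 131, 122 and 125 CPM in KO. It was the 1 member with its highest value in KO replicate 1, and its groups touched but did not overlap (121.5 CPM in WT replicate 2, 122.2 CPM in KO replicate 2; log2 fold change 0.09, SE 0.0517, edgeR adjusted p = 0.459).

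The HSP70 genes had the lowest median of the role groups, -0.22, and all 5 had log2 fold changes below 0 and their lowest value in KO replicate 1, but none passed. Leaving out KO replicate 1 took the median to -0.16, and leaving out replicate 1 of both groups took it to -0.09; in both cases Hspa4 turned to just above 0. Hspa8, the constitutive HSC70, was the most abundant member and ranked 63 among all listed genes by mean TPM. It stood at 3948, 3745 and 3716 CPM in WT and at 3228, 3678 and 3594 CPM in KO. All KO libraries were below all WT libraries, with KO replicate 1 farthest down (log2 fold change -0.12, SE 0.0608, edgeR adjusted p = 0.404). The annotated Hspa8 locus also holds the small nucleolar RNA genes Snord14c, Snord14d and Snord14e on the same strand.

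Hsph1, an HSP110-type exchange factor for HSP70, stood at 196, 170 and 165 CPM in WT and at 141, 163 and 153 CPM in KO. The KO libraries were all lower than the WT libraries, and WT replicate 1 and KO replicate 1 formed the extremes. Its log2 fold change of -0.22 (SE 0.0825) had an edgeR adjusted p of 0.278 and became -0.09 without replicate 1 of both groups. Hspa4, the APG-2 exchange factor, ranged from 346 to 406 CPM with overlapping groups (log2 fold change -0.06, SE 0.0652).

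Hspa1a and Hspa1b, the near-identical stress-inducible HSP70 genes, were scarce in these cells. Together they gave 1.84 to 12.5 TPM per library, and Hspa8 exceeded their sum by 240 to 1432 times. Both lie on the minus strand of chromosome 17, Hspa1a (ENSMUSG00000091971) from 34969190 to 34972156 and Hspa1b (ENSMUSG00000090877) from 34956436 to 34959238 in GENCODE M21 (GRCm38). Their proximal promoters are shown because they are almost the same sequence: the 250 bases before each start are 98.8% identical, with 3 substitutions, C44T, T47C and T249G, given as the Hspa1a base, the position counted from 1 at the 5′ end of the printed sequence and the Hspa1b base. The sequences are those of RefSeq (GRCm38.p6), minus strand, chr17:34972157-34972406 for Hspa1a and chr17:34959239-34959488 for Hspa1b, written 5′ to 3′, with the match to the heat shock element core GAANNTTC in capitals.
Hspa1a: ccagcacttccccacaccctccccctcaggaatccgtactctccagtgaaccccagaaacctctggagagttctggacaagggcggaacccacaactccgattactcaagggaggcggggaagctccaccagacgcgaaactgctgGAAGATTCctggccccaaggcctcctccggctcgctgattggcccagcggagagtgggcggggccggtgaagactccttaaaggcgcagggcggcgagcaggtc
Hspa1b: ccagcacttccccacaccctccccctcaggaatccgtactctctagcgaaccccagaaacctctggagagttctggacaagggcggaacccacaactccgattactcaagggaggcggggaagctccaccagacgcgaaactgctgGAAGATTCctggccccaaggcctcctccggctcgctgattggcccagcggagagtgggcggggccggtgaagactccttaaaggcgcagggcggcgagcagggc

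The transcripts also share sequence, 58.8% of the 50-base windows of Hspa1a and 62.3% of those of Hspa1b, and the deposited counts of both genes were not whole numbers, so reads may have been divided between them and the separate values are uncertain. Hspa1a stood at 4.57, 8.07 and 3.82 CPM in WT and at 1.06, 3.76 and 2.58 CPM in KO. WT replicate 2 was highest and KO replicate 1 lowest, and the groups were separated only by the gap between 3.82 and 3.76 CPM. The log2 fold change was -1.18 (SE 0.477, 95% interval -2.30 to -0.05, edgeR adjusted p = 0.314). Hspa1b stood at 6.40, 12.8 and 5.77 CPM in WT and at 1.96, 5.65 and 6.59 CPM in KO. Its groups overlapped, since KO replicate 3 exceeded WT replicates 1 and 3 (log2 fold change -0.83, SE 0.505, edgeR adjusted p = 0.492).

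Summed as 1 feature, the pair stood at 11.0, 20.9 and 9.58 CPM in WT and at 3.01, 9.41 and 9.19 CPM in KO. WT replicate 2 was high and KO replicate 1 low, and the other 4 libraries lay between 9.19 and 11.0 CPM. The summed log2 fold change was -0.95 (SE 0.497, edgeR adjusted p = 0.428). Leaving out KO replicate 1 gave -0.57 and leaving out WT replicate 2 gave -0.52, so each of these libraries moved the value by more than 1.5 times.

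**Figure D4:**
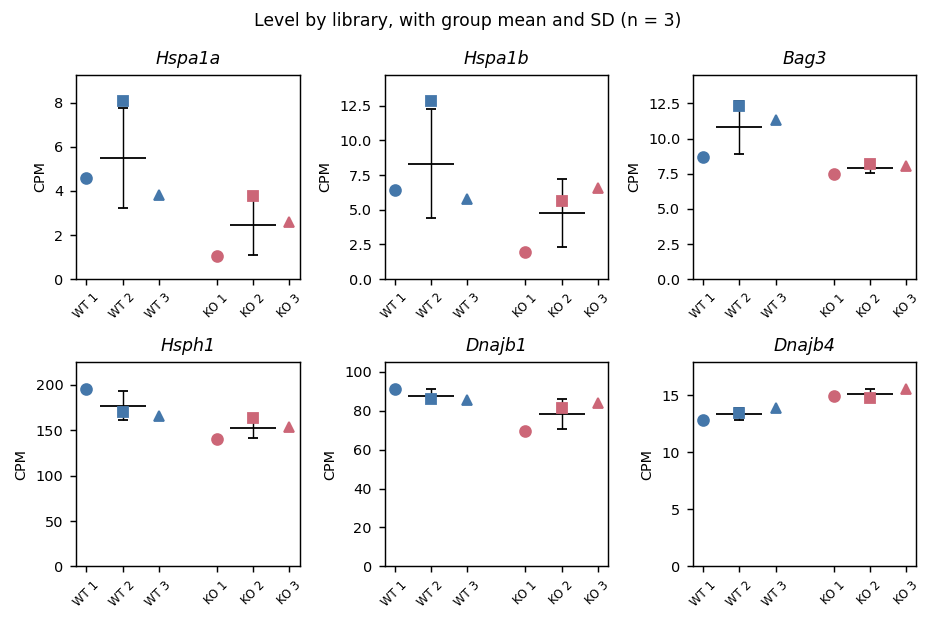
CPM of 6 genes in each library (blue WT, red KO), with the group mean and SD (n = 3 each) as bars, on axes that start at 0. Hspa1a and Hspa1b have their extremes in WT replicate 2 and KO replicate 1, Bag3 is low in all 3 KO libraries and in WT replicate 1, and Dnajb4 is the gene with all KO libraries above WT.

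J proteins deliver clients to HSP70 and stimulate its ATPase. None of the 5 genes passed, and their median was -0.03, or 0.02 without KO replicate 1. Dnaja1, the most abundant of them at 269 ± 3.87 TPM (SD, n = 3) in WT and 256 ± 18.4 TPM (SD, n = 3) in KO, stood at 244, 250 and 253 CPM in WT and at 223, 251 and 250 CPM in KO. KO replicate 1 was low and the other 5 libraries overlapped (log2 fold change -0.04, SE 0.0605, edgeR adjusted p = 0.771), and the sign turned without KO replicate 1.

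Dnajb1, the heat-inducible J protein of the HSP40 class, stood at 91.3, 85.8 and 85.6 CPM in WT and at 69.4, 81.2 and 84.0 CPM in KO. The KO libraries were all lower, with KO replicate 3 close to the WT range (log2 fold change -0.16, SE 0.0777, edgeR adjusted p = 0.370). The value was -0.08 without KO replicate 1. Dnajb4, another member of the B class, stood at 12.9, 13.5 and 13.9 CPM in WT and at 14.9, 14.8 and 15.6 CPM in KO. Here every KO library was above every WT library (log2 fold change 0.17, SE 0.0717, edgeR adjusted p = 0.319), although on the TPM scale the groups overlapped (10.7, 10.2 and 11.1 TPM in WT, 11.5, 10.5 and 11.5 TPM in KO). Dnajb4 lies on chromosome 3 from 152178511 to 152210302, minus strand, 113 kb centre to centre from Miga1, a gene that was called higher in KO (log2 fold change 0.61). Dnaja2 and Dnajb6, a J protein known for suppressing aggregation, ranged from 207 to 242 CPM and from 122 to 131 CPM, with overlapping groups; the sign of both turned in some settings.

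Of the 4 other HSP70 partners, Bag3 had the smallest p of all 36 genes. Bag3 (ENSMUSG00000030847), the stress-induced BAG protein that links HSP70 to selective autophagy, lies on chromosome 7 from 128523616 to 128546981, plus strand, with 2610306O10Rik overlapping on the same strand. It stood at 8.72, 12.3 and 11.3 CPM in WT and at 7.47, 8.15 and 8.06 CPM in KO, from 273 to 578 counts per library. All KO libraries were below all WT libraries, and WT replicate 1 was the WT library nearest to them. Bag3 averaged 10.8 ± 1.86 CPM (SD, n = 3) in the WT libraries and 7.89 ± 0.372 CPM (SD, n = 3) in the KO libraries, and its log2 fold change was -0.45 (SE 0.137, 95% interval -0.77 to -0.14, edgeR adjusted p = 0.194). DESeq2 gave an adjusted p of 0.0925. Without replicate 1 of both groups the log2 fold change was -0.55 and the edgeR adjusted p 0.0178, the single case among the settings run in which any member passed. That was 1 of 36 (2.78%), in a setting that called 4.21% of all tested genes. Its KO group was replicates 2 and 3 only, the closest pair within a group (biological coefficient of variation 2.97%), so its spread may be partly technical. With KO replicates 2 and 3 summed and KO replicate 1 kept, the edgeR adjusted p of Bag3 was 0.334. Leaving out WT replicate 1 alone gave -0.59 (edgeR adjusted p = 0.0573) and KO replicate 1 alone -0.41 (edgeR adjusted p = 0.373). Over the settings run the adjusted p ranged from 0.0178 to 0.409. The nearest called gene, Itgax, lies 395 kb away and differed in the other direction (log2 fold change 1.60).

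The adaptor Stip1 (HOP), which holds HSP70 and HSP90 together, stood at 326, 283 and 294 CPM in WT and at 256, 279 and 279 CPM in KO. The groups did not overlap, with WT replicate 1 highest and KO replicate 1 lowest (log2 fold change -0.15, SE 0.0685, edgeR adjusted p = 0.361; -0.05 without both). St13 (HIP), which stabilises the ADP-bound form of HSP70 and had the highest mean TPM of the partners over the 6 libraries (Bag1 was higher in each KO library), stood at 214, 228 and 227 CPM in WT and at 183, 220 and 221 CPM in KO. Only KO replicate 1 was apart from the rest (log2 fold change -0.10, SE 0.0803, edgeR adjusted p = 0.590; -0.02 without it). Bag1, a constitutive exchange factor, had a log2 fold change of 0.0037 (SE 0.0736) whose sign turned in 7 of 16 settings.

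Both cytosolic HSP90 genes had log2 fold changes below 0 with overlapping groups, and neither passed. Hsp90ab1, the constitutive form, ranked 80 among all listed genes by mean TPM, and together with Hspa8 it made up 42.7 to 44.2% of the summed TPM of the 36 members, which was itself 1.17 to 1.37% of all TPM. It stood at 3989, 3741 and 3697 CPM in WT and at 3407, 3794 and 3706 CPM in KO. The groups overlapped, since KO replicates 2 and 3 exceeded WT replicate 3 (log2 fold change -0.07, SE 0.0577, edgeR adjusted p = 0.624). Hsp90aa1, the inducible form, stood at 998, 896 and 927 CPM in WT and at 750, 932 and 926 CPM in KO. KO replicate 1 was low and the others overlapped (log2 fold change -0.11, SE 0.0901, edgeR adjusted p = 0.595). Without replicate 1 of both groups both signs turned (0.03 for Hsp90aa1 and 0.01 for Hsp90ab1). Hsp90aa1 lies on chromosome 12 from 110690605 to 110702728 and Hsp90ab1 on chromosome 17 from 45567775 to 45573271, both on the minus strand, and their transcripts share 0 windows of 50 bases.

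The balance between the inducible and the constitutive HSP90 gene was compared per length. Hsp90aa1 gave 17.8, 17.3 and 18.0% of the summed TPM of the pair in WT and 16.1, 17.6 and 17.9% in KO. KO replicate 1 was lowest and the other 5 libraries lay between 17.3 and 18.0%. The difference of the means, KO minus WT, was -0.54 percentage points (two-sided exact permutation p = 0.6, where 0.1 is the smallest that 3 against 3 allows), and it was 0.012 without KO replicate 1.

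The HSP90 cochaperone genes had a median log2 fold change of 0.01, with 4 of 6 above 0, and none passed or separated the groups in CPM. Ahsa1, which activates the HSP90 ATPase, had the smallest p and stood at 168, 152 and 156 CPM in WT and at 140, 151 and 156 CPM in KO. WT replicate 1 was high, KO replicate 1 low and the other 4 libraries alike (log2 fold change -0.09, SE 0.0632, edgeR adjusted p = 0.526). Cdc37, which brings kinases to HSP90 and was the most abundant cochaperone per length, stood at 251, 270 and 251 CPM in WT and at 254, 262 and 262 CPM in KO. Its groups overlapped with WT replicate 2 highest (log2 fold change 0.01, SE 0.0522, edgeR adjusted p = 0.934). Fkbp4 and Fkbp5, the immunophilins of steroid receptor complexes, were highest in WT replicate 1 (199 and 87.2 CPM) and ranged from 147 to 164 CPM and from 65.5 to 76.2 CPM in the other 5 libraries. Ptges3 (p23), which stabilises the closed form of HSP90, ranged from 177 to 221 CPM and Chordc1 (CHP-1) from 114 to 138 CPM, both lowest in KO replicate 1. The signs of Cdc37, Chordc1, Fkbp4, Fkbp5 and Ptges3 turned in some settings; Chordc1 was at -0.13 with limma on log2(TPM + 1).

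The mRNA of heat shock factor 1, the transcription factor that induces the stress-responsive members, was nearly the same in all libraries. Hsf1 (chromosome 15 from 76477422 to 76501913, plus strand) stood at 52.5, 53.0 and 49.7 CPM in WT and at 51.8, 52.8 and 53.0 CPM in KO. WT replicate 3 was lowest and the groups overlapped (log2 fold change 0.02, SE 0.0489, 95% interval -0.09 to 0.14, edgeR adjusted p = 0.866). Hsf2 stood at 19.1, 18.8 and 20.4 CPM in WT and at 18.6, 18.0 and 18.1 CPM in KO. Its KO libraries were all lower by a narrow margin (log2 fold change -0.09, SE 0.0647, edgeR adjusted p = 0.547). Neither gene had its lowest value in KO replicate 1. The activity of heat shock factor 1 protein was not measured.

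Heat shock factors bind inverted repeats of the unit GAA. Promoter sequences from RefSeq (GRCm38.p6; 250 bases before to 50 after each annotated start) were matched for 29 of the 36 members; Cct4, Pfdn1, Hspa8, St13, Hsp90aa1, Hsp90ab1 and Hsf1 were not matched. Both strands were searched. The 3-unit element GAANNTTCNNGAA or its reverse complement was in 3 of 29 members (10.3%), Hsph1, Chordc1 and Dnajb6, against 0.662% of all 27025 gene symbols with a promoter in the table. The shorter GAANNTTC was in 9 of 29 (31.0%, against 9.04%) and TTCNNGAA in 7 of 29 (24.1%, against 9.6%); every 3-unit match contains both. The 3-unit matches and the Bag3 match to GAANNTTC are shown because Bag3 and Hsph1 were the members of smallest p. Chordc1 and Dnajb6 were not among these. Each is written 5′ to 3′ on the strand of its gene, with the matched bases in capitals. They lie at chr5:149636287-149636308 (minus strand) for Hsph1, chr9:18292260-18292288 (plus) for Chordc1, chr5:29735844-29735872 (plus) for Dnajb6 and chr7:128523614-128523632 (plus) for Bag3. With the start base as 1, the Bag3 match (43 to 50) and the Hsph1 match (37 to 49) lie after the start. The Chordc1 matches (-4 to 19) span the start and the Dnajb6 match (-46 to -34) lies before it. Hsph1 and Dnajb6 each have another annotated start, which shifts these positions.
Hsph1: gctgcagaTTCTGGAAAGTTCt
Chordc1: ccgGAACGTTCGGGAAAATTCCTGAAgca
Dnajb6: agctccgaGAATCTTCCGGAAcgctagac
Bag3: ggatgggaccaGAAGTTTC
The 3 genes with the 3-unit element had log2 fold changes of -0.22 (Hsph1), 0.02 (Chordc1) and -0.01 (Dnajb6). A match is a description of the sequence, and binding was not measured.

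Of 67 further genes of the cytosolic folding machinery, 62 were tested. In edgeR 0 passed (0 also in DESeq2 and limma; 0.674% of all tested genes did), and 4 were at an unadjusted p under 0.05 (6.45%, against 15.1% of all tested genes), with a median log2 fold change of -0.03; KO replicate 1 was the lowest library for 24 of the 62 (38.7%, against 26.6% of all tested genes). Among 16 partners of CCT, prefoldin and tubulin folding, Uxt, a prefoldin-like protein, and Pdcl3, a phosducin-like CCT partner, had the smallest p (log2 fold changes of -0.13 and -0.10, edgeR adjusted p = 0.496 and 0.499). Among 24 other HSP70, J and BAG genes these were Dnajb14 (0.30, edgeR adjusted p = 0.222), a membrane J protein of the endoplasmic reticulum whose domain faces the cytosol, and Hspa4l (-0.16, edgeR adjusted p = 0.358). Among 16 other HSP90 partners they were Cdc37l1 (0.17, edgeR adjusted p = 0.207) and the phosphatase Ppp5c (-0.18, edgeR adjusted p = 0.305).

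Of 7 small heat shock and nascent chain genes 4 were tested, and Hspb6 and Hspb11 had the smallest p (-0.16 and -0.09, edgeR adjusted p = 0.651 and 0.690). Hspb1, Cryab and Hspb8, the inducible small heat shock proteins, had at most 4 counts in any library and were not tested. Of the relatives of the heat shock factors, Hsf4 was at 0.59 (edgeR adjusted p = 0.305) from 0.75 to 1.62 CPM, the factor-binding protein Hsbp1 was at -0.03 (edgeR adjusted p = 0.808), and Hsf3 and Hsf5 were not tested.

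The role medians were also computed without the replicate 1 libraries. With all 6 libraries the medians ran from -0.22 (HSP70) to 0.02 (prefoldin), and without KO replicate 1 from -0.16 (HSP70) to 0.03 (HSP90 cochaperones). Without replicate 1 of both groups HSP70 stood at -0.09, the HSP70 partners at -0.05, HSP90 at 0.02, CCT at 0.01 and the HSP90 cochaperones at 0.07. The heat shock factors moved least, between -0.03 and -0.04.

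**Figure D5:**
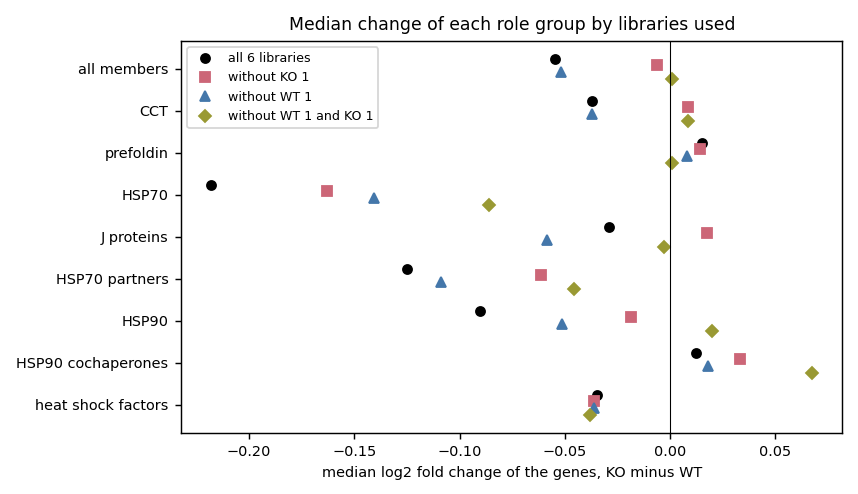
Median log2 fold change, KO minus WT, of all 36 genes and of each role group with all 6 libraries, without KO replicate 1, without WT replicate 1 and without both. Leaving out KO replicate 1 moves most medians toward 0, and HSP70 stays the lowest in each case.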

How the data were processed

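The authors deposited estimated counts and TPM per gene for each sample, per the file headers. The submitters' processing notes name FastQC and HISAT2, without versions. For the counting program, strand use, genome build and annotation, the sources used here give nothing. Positions come from GENCODE M21 (GRCm38). In each library 23.5 to 25.2% of genes had counts that were not whole; 22 of the 36 members had whole counts throughout.

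Expected counts were rounded, filtered with filterByExpr at its defaults (12768 of 21899 genes kept), scaled by TMM and tested for KO against WT with edgeR 4.0.16 (quasi-likelihood F test, robust, two-sided, genotype as the only term). Benjamini-Hochberg adjustment ran over all tested genes, with a threshold of 0.05. Alternatives were DESeq2 1.42.0, other scaling and filters, limma 3.58.1 on log2(TPM + 1) and log2(TPM + 0.1), a replicate block, fits without libraries, and KO replicates 2 and 3 summed. Summing Hspa1a and Hspa1b was chosen after seeing the data. The pipeline, in R 4.3.3 and Python 3.11.15, was tested on simulated data. There edgeR recovered 2 of 50 genes changed 1.2-fold, 33 of 50 changed 1.5-fold and 40 of 50 changed 2-fold. DESeq2 recovered 7, 38 and 42 of 50. False calls were 9 of 129 with edgeR and 27 of 159 with DESeq2. In simulated counts with no gene changed, edgeR called 0 genes and DESeq2 called 26.

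The members and all gene lists were chosen with earlier results of these data known. Every member is named. All 6 values are given for members past the threshold, for those of smallest p and of highest mean TPM in each role group, and for Hspa1a, Hspa1b, Hsp90aa1, Hsp90ab1, Hsf1 and Dnajb1; Stip1 was added after its values were seen. In the other lists, genes past the threshold or the 2 of smallest p are named. Further marker lists gave 0.154 to 1.08 CPM (erythroid) and 794 to 959 CPM (immediate early) per library.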

Additional observations from a re-analysis of the deposited data

How the results depend on the processing

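None of the 36 members passed with all libraries or with 1 left out; without replicate 1 of both groups 1 passed, Bag3. All tested genes called numbered 86, and 527 with DESeq2, 133 without a filter, 56 with a stricter filter (1 CPM), 39 with limma on log2(TPM + 1), 177 with the replicate block, 8 with KO replicates 2 and 3 summed, and 538 without replicate 1 of both groups; leaving out 1 library gave 4 (KO replicate 3) to 93 (WT replicate 1). The cause was not tested. Deviations of same-numbered samples from the group means correlated at 0.184, 0.078 and 0.0841, and those of differently numbered samples at -0.145 to 0.112. These values do not decide whether the numbers are pairs. The labels name no pairing, so the replicate block was run only as an alternative. With it the difference in the Hsp90aa1 share, KO minus WT, stayed at -0.54 percentage points. That difference ranged from -0.885 to 0.0116 percentage points with 1 library left out and was 0.061 without replicate 1 of both groups.

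Log2 fold changes near 0 turned their sign. Without replicate 1 of both groups they were 0.00212 (Cct2), 0.0149 (Cct3), 0.0288 (Cct5), 0.0378 (Cct8), 0.00211 (Hspa4), 0.0275 (Hsp90aa1), 0.0121 (Hsp90ab1), 0.105 (Fkbp4). With 1 library left out they ranged over -0.0625 to 0.0141 (Cct2), -0.0405 to 0.0182 (Cct4), -0.0661 to 0.00666 (Cct5), -0.0107 to 0.147 (Cct6a), -0.0763 to 0.0104 (Cct8), -0.0945 to 0.00231 (Hspa4), -0.074 to 0.012 (Dnaja1), -0.071 to 0.0419 (Dnaja2), -0.0289 to 0.0173 (Dnajb6), -0.0449 to 0.0819 (Bag1), -0.00679 to 0.051 (Cdc37), -0.0529 to 0.102 (Chordc1), -0.157 to 0.0649 (Fkbp4), -0.0655 to 0.147 (Fkbp5), -0.0137 to 0.142 (Ptges3), -0.00709 to 0.0413 (Hsf1). With KO replicates 2 and 3 summed they were -0.0369 (Bag1), -0.0244 (Chordc1), -0.000282 (Fkbp5), -0.00498 (Ptges3); with limma on log2(TPM + 1) -0.00348 (Bag1), -0.131 (Chordc1); and with limma on log2(TPM + 0.1) -0.00351 (Bag1), -0.132 (Chordc1). The replicate block gave -0.000207 (Bag1) and upper-quartile scaling 0.00015 (Dnajb6). The fewest counts among the members were those of Hspa1a, 52.9 to 379 per library.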
